A study of Yarrowia lipolytica with 11 samples.

Results

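The response of the wild type of the oleaginous yeast Yarrowia lipolytica to hexanoic acid was measured by RNA sequencing. All rows of the count table were taken for the libraries labelled wild type with 1 g/L hexanoic acid, 3 libraries, and wild type untreated, 3 libraries. These are 6 of the 11 libraries in the series, and each holds all 7135 gene rows of the table. The remaining 5 libraries come from a mutant that lacks pex10 and carries a plasmid overexpressing DGA1, 2 of them untreated and 3 with the acid at the same dose. The labels call the wild type only wt and do not name its strain, and they state that cultures were started from independent colonies in YPC medium and collected in exponential phase.

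Hexanoic acid is a short fatty acid that yeasts can meet both as a carbon source and as a stress. Y. lipolytica degrades fatty acids by beta-oxidation in peroxisomes, the organelles that PEX10 helps to assemble, and stores surplus acyl chains as triacylglycerol, whose last synthetic step is catalysed by the product of DGA1. In their undissociated form weak organic acids cross the plasma membrane and release protons in the cytosol.

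The table identifies nuclear genes by locus tag. None of its identifiers (0 matches) occurs among the 8689 entries of the RefSeq gene table for strain CLIB89(W29), which uses another tag series. Nuclear genes are therefore given without a name or a role, and PEX10 and DGA1 were not looked up. Only the 2 largest rises and the 2 largest falls among genes above a minimum level are printed by tag. Genes that the table itself names, which are mitochondrial protein genes and some noncoding RNAs, are given by those names.

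Of 7135 rows, 6301 had enough counts to be tested, and the other 834 rows held 0.00622% of the wild-type counts. Wild-type libraries held 9988288 to 17519857 counts. Correlations of log2 CPM (counts per 1000000 of the library, scaled between libraries by TMM) were 0.965 to 0.989 among the untreated libraries and 0.980 to 0.985 among the treated ones. The lower values of the untreated group, 0.965 and 0.971, both involved untreated replicate 2. In a principal component analysis of the wild-type libraries the first component held 85.9% of the variance and separated the conditions, with the untreated libraries at −53.69, −65.64 and −58.67 and the treated ones at 55.46, 59.62 and 62.92. On the second component (6.31%) untreated replicate 2 lay at −29.83 and the other untreated libraries at 17.74 and 15.09. This library also stood apart in the named RNAs described at the end, whose log2 changes are given there with and without it.

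Most of the tested genes responded to the acid, and under TMM scaling nearly as many fell as rose. In edgeR's quasi-likelihood test with Benjamini-Hochberg adjustment over all 6301 genes, 3563 genes passed at an adjusted p under 0.05, which is 56.5% of those tested. Of these, 1798 were higher with the acid (28.5% of tested genes) and 1765 were lower (28%). At this background, a single gene that passes is an ordinary observation in this comparison, and its size and spread say more than its call. The median log2 change of all tested genes was −0.0072, and scaling by total counts alone moved it to −0.11. That scaling gave 1614 genes higher and 1945 lower. Levels are relative under either scaling, and TMM sets the changes to centre near 0, so the balance of rises and falls depends on the scaling.

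**Figure D1:**
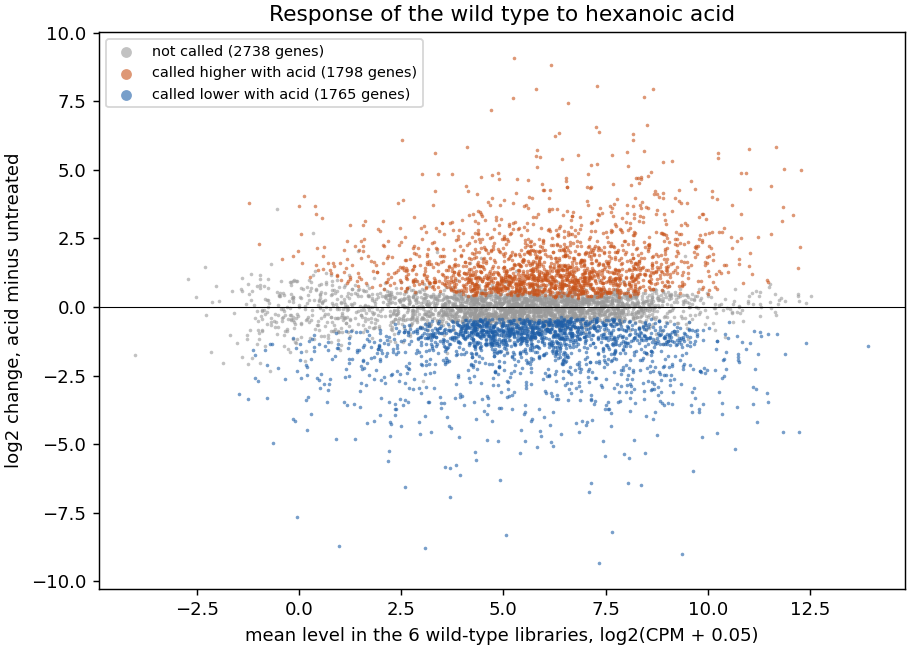
Each point is 1 of 6301 tested genes, with its mean level in the 6 wild-type libraries on the horizontal axis (log2 of CPM plus 0.05) and its log2 change, acid minus untreated, on the vertical axis. Orange points (1798 genes) passed the test as higher, blue points (1765) as lower, and grey points did not pass; changes run from −9.36 to 9.10 among the genes with a mean of at least 50 CPM in the higher condition.

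The changes were often large. Among the genes that passed, the median absolute log2 change was 1.24, and 2312 changed at least 2-fold, while 1251 (35.1%) changed by less. Of the rises, 1203 were at least 2-fold, 487 at least 4-fold, 207 at least 8-fold, 90 at least 16-fold and 17 at least 64-fold. The falls had a similar ladder, with 1109, 415, 195, 80 and 15 genes at the same folds. All 207 rises and all 195 falls of at least 8-fold had groups of 3 libraries that did not overlap. Over all tested genes, 3963 (62.9%) had groups that did not overlap, 1986 higher (31.5%) and 1977 lower (31.4%) with the acid. Of these, 1770 and 1707 passed the test, and 86 genes passed although their groups overlapped.

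The shift moved a large part of the transcript pool. Genes that passed as higher took 15.9%, 14.8% and 15.4% of the counts in the untreated libraries, and 48.6%, 49.4% and 51.8% in the treated ones. Genes that passed as lower took 45.6%, 49.5% and 47.4% untreated and 16.1%, 14.3% and 13.0% with acid. These genes were chosen by the test, so both sets of shares describe its size and are not further evidence of it. Of the 100 genes with the most counts in the untreated condition, 45 were among the 100 with the most counts in the treated condition, and of the top 10 in each condition 2 were shared.

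The share of the single gene with the most counts fell with the acid, while wider measures of the concentration of counts overlapped between the conditions. The gene with the most counts in each library held 1.93%, 2.75% and 2.12% of the counts untreated and 0.952%, 1.02% and 1.10% with acid, and the groups did not overlap (exact two-sided permutation test, p = 0.1, the smallest that 3 against 3 libraries allow). The top 10 genes together held 7.46% to 8.88% untreated and 6.38% to 7.53% with acid, which overlap (exact p = 0.2). To reach 50% of the counts, the genes with the most counts numbered 314 to 345 untreated and 307 to 391 with acid, also with overlap (exact p = 0.9).

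The share of genes that passed rose with their mean level over all libraries, as did the share of rises among them. Genes were divided into 4 classes of 1575 or 1576 by their mean CPM over all 11 libraries. This mean includes the treated libraries, so a rise moves a gene toward higher classes and a fall toward lower ones. The link between class and direction was therefore partly set by the division. In the lowest class (0.321 to 19.4 CPM) 46.7% passed, with 253 higher and 483 lower. In the highest class (140.0 to 12300 CPM) 64.4% passed, with 603 higher and 412 lower. The standard error of the log2 change had a median of 0.314 in the lowest class and of 0.234 in the highest. In the other classes 56.0% passed from 19.4 to 52.7 CPM and 59.0% from there to 140.0 CPM, with median standard errors of 0.219 and 0.206, below those of the lowest and the highest class.

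Responding genes were spread over the genome rather than gathered under 1 letter of the locus tags, which by the naming convention of this genome stands for the chromosome. The share that passed ran from 52.8% of 642 tested genes with the letter A to 59.1% of 924 with the letter B. Rises made up 27.9% to 29.1% of the tested genes under every letter, against 28.5% of all, and falls 24.1% (A) to 31.2% (B), against 28% of all. Locus tags that end in r, 627 rows, held 0.0109% of the wild-type counts. Of them 219 had no counts in any wild-type library and 35 were tested, of which 1 rose and 6 fell, against 56.5% passing among all genes.

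The largest rise among genes with at least 50 CPM in the higher condition was that of YALI0_E06589g. It had 0.0751, 0.196 and 0.115 CPM in the untreated libraries and 29.1, 106.7 and 94.2 CPM in the treated ones. It was close to silent without acid, with 1, 3 and 2 counts, and treated replicate 1 was the lowest of its group while the other treated libraries lay close together. The log2 change was 9.10 ± 0.76 (SE; edgeR adjusted p = 2.27e-06). In the mutant the same gene stood at 12.8 and 24.6 CPM untreated and at 11.6, 6.86 and 4.22 CPM with acid. The mutant libraries of both conditions thus lay between the untreated and the treated wild-type libraries, and its log2 change there was −1.31 ± 0.52 (adjusted p = 0.107). The difference between the responses was 10.4 ± 0.93 on the log2 scale (adjusted p = 2.66e-05).

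The second largest rise, of YALI0_B06028g, was shared by both strains. Its levels were 0.150, 0.326 and 0.404 CPM untreated and 133.8, 123.3 and 173.1 CPM with acid in the wild type. The counts were 2, 5 and 7 without acid and 1766, 1111 and 2232 with it, so all treated libraries lay far above the untreated ones and close to each other. The log2 change was 8.85 ± 0.35 (adjusted p = 6.18e-08). In the mutant the levels were 0.760 and 0.639 CPM untreated and 60.1, 86.0 and 53.0 CPM with acid, a log2 change of 6.56 ± 0.38 (adjusted p = 2.72e-06). The rise was larger in the wild type by 2.29 ± 0.53 on the log2 scale (adjusted p = 0.00891).

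Among genes with at least 50 CPM in the higher condition, the largest fall was that of YALI0_D00759g. It went from 283.4, 321.8 and 368.0 CPM untreated to 0.227, 0.555 and 0.698 CPM with acid. Between 3776 and 6381 counts per library without acid were left as 3, 5 and 9 counts with it, and the log2 change was −9.36 ± 0.39 (adjusted p = 6.18e-08). In the mutant it went from 546 and 1035 counts to 1, 0 and 0, and the difference between the responses did not pass (1.31 ± 0.94 on the log2 scale, adjusted p = 0.334). With so few counts left in each strain, the sizes of these falls and of their difference are uncertain. The second, YALI0_B23452g, was more abundant, with 1203, 1103 and 1661 CPM untreated and 2.05, 1.33 and 4.19 CPM with acid. Its log2 change was −9.00 ± 1.08 (adjusted p = 2.94e-05). In the mutant it fell from 449.0 and 31.7 CPM, 2 libraries that lie far apart, to 1.66, 0.719 and 4.96 CPM, and the difference between the responses did not pass (−2.38 ± 1.27, adjusted p = 0.190).

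**Figure D2:**
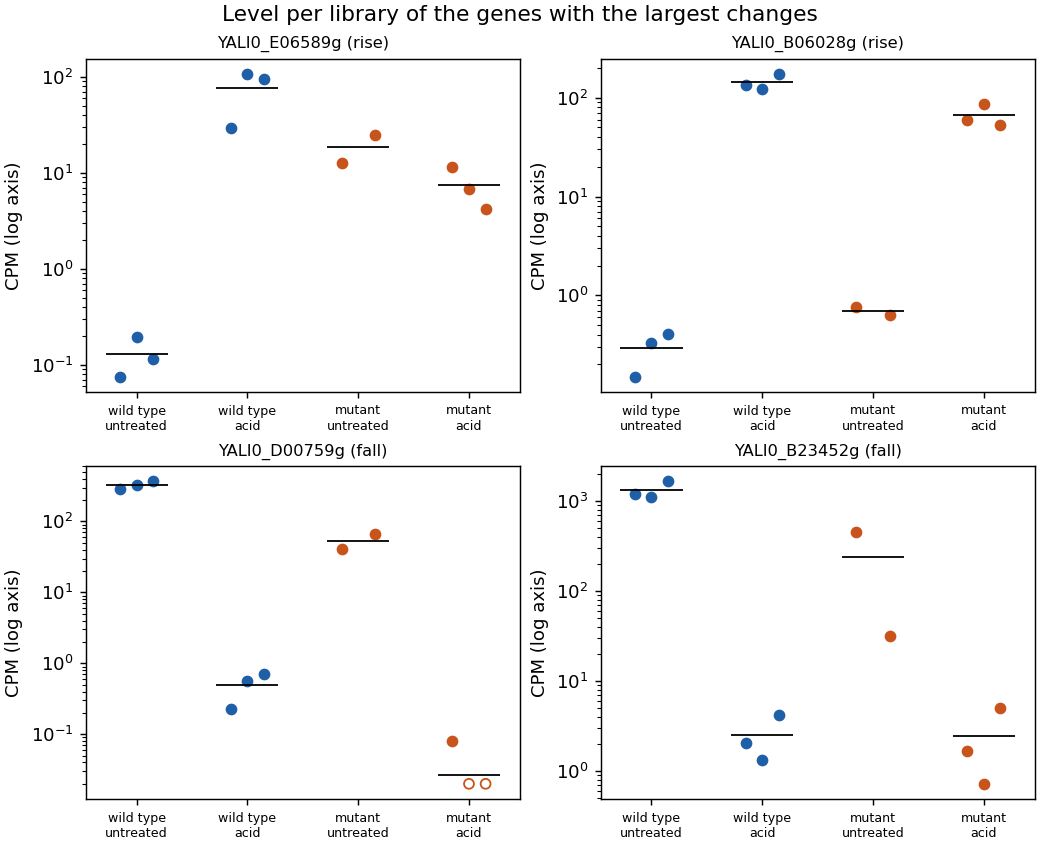
Level in CPM (log axis) of the 2 genes with the largest rise and the 2 with the largest fall among genes with at least 50 CPM in the higher condition. Each library is 1 point, with a line at each group's mean, wild type in blue and mutant in orange. Open circles at the lower edge are libraries with 0 counts. The untreated mutant sits near the untreated wild type for YALI0_B06028g (0.699 against 0.293 CPM) and well above it for YALI0_E06589g (18.7 against 0.129 CPM).

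The 10 largest rises and the 10 largest falls among genes with at least 50 CPM in the higher condition were summarised as sets. They include these 4 genes and leave out large changes of genes at lower levels. At any level, 6 of the 17 rises and 14 of the 15 falls of at least 64-fold passed in the mutant in the same direction. YALI0_B06028g was 1 of the 2 rises in its set that passed in the mutant. Neither fall printed by tag had a response difference that passed, while 5 of the 10 falls did. The 10 rises ran from 6.66 to 9.10 on the log2 scale in the wild type (largest adjusted p = 5.33e-05). Of them 2 passed as higher in the mutant, where 7.95% of all tested genes did. Their log2 changes in the mutant ran from −1.50 to 6.56 with a median of 0.58. The response difference passed for 10 of 10, against 25.5% of all tested genes. These genes were chosen by their wild-type change, which is part of that difference, so a difference that passes is partly built in. Group means of these 10 genes had a median of 0.784 CPM in the untreated wild type, 166.0 CPM in the treated wild type, 19.7 CPM in the untreated mutant and 61.3 CPM in the treated mutant. The 10 falls ran from −9.36 to −5.98 in the wild type (largest adjusted p = 2.94e-05). Of them 10 passed as lower in the mutant as well, where 9.7% of all tested genes did. Their log2 changes in the mutant ran from −10.7 to −3.35 with a median of −4.57. The −10.7 was that of YALI0_D00759g, with 1, 0 and 0 counts in the treated mutant, so its size depends on the count floor. The response difference passed for 5 of the 10 falls, which were chosen in the same way as the rises. Their group means had medians of 365.0 CPM in the untreated and 2.52 CPM in the treated wild type, and 93.3 and 3.23 CPM in the mutant. In the 10 rises the highest and lowest library of a group differed by 1.15- to 16.1-fold among the untreated (median 2.65) and by 1.3- to 13.7-fold among the treated wild-type libraries (median 1.98). In the 10 falls they differed by 1.3- to 2.56-fold (median 1.56) and by 1.25- to 3.14-fold (median 1.94). The 2 untreated mutant libraries correlated at 0.956, the lowest value of any pair within a group. YALI0_D00759g had 41.5 and 66.2 CPM in untreated mutant replicates 1 and 2. Each of the other falls was higher in replicate 1, as for YALI0_B23452g with 449.0 and 31.7 CPM, so the sizes of these falls in the mutant are uncertain.

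The same contrast between rises and falls was seen in larger sets, those of at least 8-fold in the wild type. They contain the genes summarised above and were likewise chosen by the wild-type change, so they are not a separate observation. In the mutant 1112 genes passed with the acid (17.6%). Over all 6301 genes the response difference between the strains passed for 1604 genes (25.5%), 974 with the more positive and 630 with the more negative response in the wild type. Of the 207 rises of at least 8-fold in the wild type, 83 (40.1%) also passed as higher in the mutant, where 7.95% of all genes did, and 7 passed as lower. For 191 of the 207 (92.3%) the rise was larger in the wild type by the test of the difference. Of the 195 falls of at least 8-fold, 155 (79.5%) passed as lower in the mutant, where 9.7% of all genes did. For 94 of these 195 (48.2%) the fall was larger in the wild type. The 207 rises had median log2 changes of 3.83 (wild type) and 0.716 (mutant), and the 195 falls of −3.73 and −2.24. Choosing genes by their size in the wild type favours larger values there. Whether it does so equally for rises and falls was not tested, and the shares of rises and falls were not compared by a test because genes are not replicates.

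**Figure D3:**
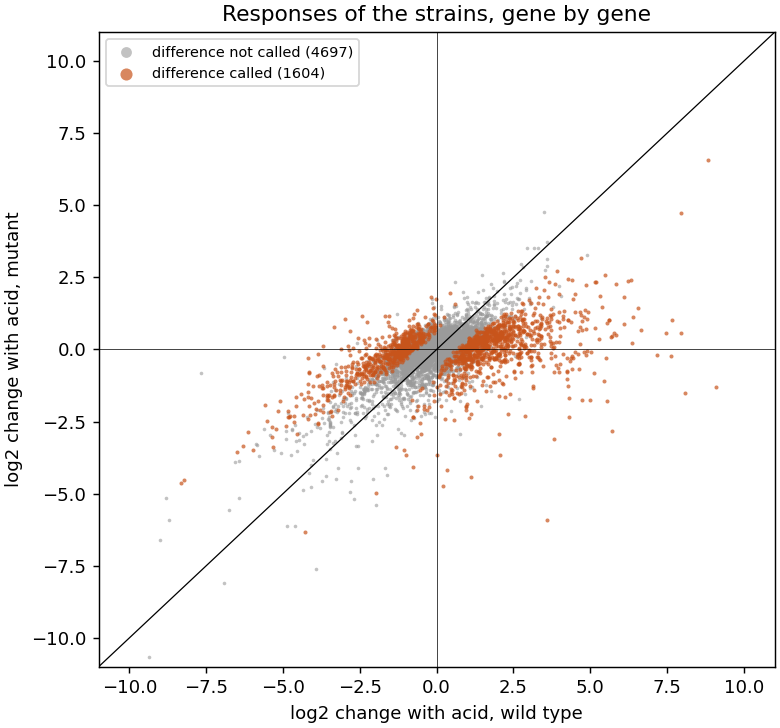
Each point is 1 of 6301 genes, with its log2 change with acid, that of the wild type on the horizontal axis and that of the mutant on the vertical axis; the diagonal marks equal responses. Orange points (1604) passed the test of the response difference, and on the right many of them lie along 0 in the mutant while on the left the points fall away toward lower values in the mutant as well.

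The size of this contrast depended on the mutant libraries. Without untreated mutant replicate 1 18.8% of the rises and 40% of the falls of at least 8-fold passed in the mutant, and the response difference passed for 92.3% of the rises and 71.0% of the falls. Without each of the other libraries the share that passed in the mutant lay between 28.99% and 41.2% for the rises and between 63.1% and 83.0% for the falls. The rises had the lower share that passed in the mutant and the higher share with a response difference in each of these fits. The mutant total of 1112 became 447 without untreated mutant replicate 1, 609 without treated mutant replicate 2 and 674 without treated mutant replicate 3.

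**Figure D4:**
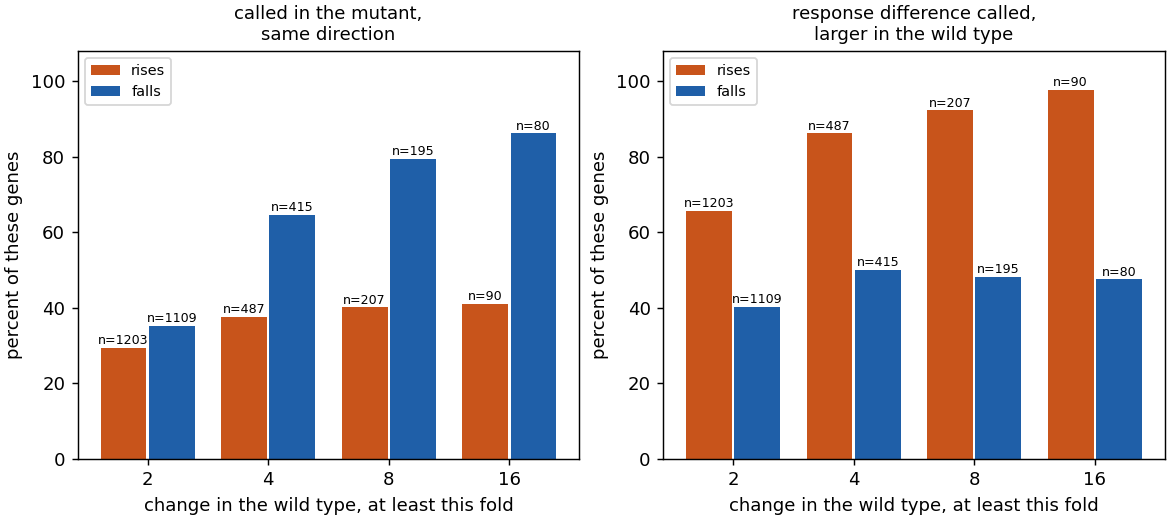
Bars give, for wild-type rises (orange) and falls (blue) of at least 2-, 4-, 8- and 16-fold, the percentage that also passed in the mutant in the same direction (left) and the percentage whose response was larger in the wild type by the test of the difference (right), with the number of genes over each bar. At 16-fold, 41.1% of 90 rises and 86.2% of 80 falls passed in the mutant, and the difference passed for 97.8% and 47.5%.

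Some genes were read in only 1 condition. With over 30 counts summed over the 3 libraries as the minimum, 3 rows had counts without acid and none in the treated wild type, and 0 rows had the opposite pattern. Against a floor of 3 counts over the treated group, the falls of these 3 rows were at least 10.4-fold, 23.2-fold and 48.3-fold. One of them had 38 to 77 counts in each untreated library.

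The table names 61 rows, which together held 0.0488% of the wild-type counts, and 15 of them were tested. These were 8 of 14 mitochondrial protein genes, 5 of 8 noncoding RNA genes and the rows YalifMr30 and YalifMr31, which held most of these counts (0.0418%). The remaining names are 10 intron rows, all without counts, and 27 YalifMt rows, none of them tested. In S. cerevisiae, RPR1 is the RNA of nuclear RNase P, which trims transfer RNA precursors, SCR1 is the RNA of the signal recognition particle, SNR14 is the U4 spliceosomal RNA, and SNR17 is the U3 RNA of ribosomal RNA processing. Of the 5 tested noncoding RNAs 2 fell and none rose, with a median log2 change of −1.04, against 56.5% passing and a median of −0.0072 over all genes. Without untreated replicate 2 none of the 5 passed and the median was −0.37. RPR1 had 7.06, 29.5 and 6.69 CPM untreated and 3.33, 4.77 and 3.57 CPM with acid, a log2 change of −1.90 ± 0.56 (adjusted p = 0.0128). The untreated libraries all lay above the treated ones, and replicate 2 lay far above the rest. Without it the change was −0.83 and did not pass (adjusted p = 0.0772).

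SRN19, spelled as in the table, had 2.25, 6.40 and 2.08 CPM untreated and 0.454, 1.89 and 0.698 CPM with acid, a log2 change of −1.89 ± 0.60 (adjusted p = 0.0188). Without untreated replicate 2 it was −1.17 (adjusted p = 0.0994). It also missed the threshold without treated replicate 1 (−1.52, adjusted p = 0.0749) or 3 (−1.68, adjusted p = 0.0711). SCR1 had 6.61, 24.5 and 5.82 CPM untreated and 4.47, 10.5 and 3.26 CPM with acid, which overlap (log2 change −1.04 ± 0.63, adjusted p = 0.177). Without untreated replicate 2 its log2 change was −0.053 (adjusted p = 0.943). SNR17 was at −0.51 ± 0.37 and SNR14 at −0.43 ± 0.36 on the log2 scale, and neither passed (adjusted p = 0.256 and 0.336). Without that library they were at −0.37 and −0.067. Summed over the 8 noncoding RNA rows, the untreated libraries held 38.7, 90.7 and 31.6 CPM of their total and the treated ones 24.5, 32.7 and 16.6 CPM, which overlap (exact two-sided permutation p = 0.2).

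As a sum, mitochondrial transcripts were lowest in the same untreated replicate 2. The cytochrome b gene cob went the other way, with 1.83 CPM there against 1.35 and 1.04 in the other untreated libraries. Summed over the 14 protein genes, which encode subunits of the respiratory chain and of ATP synthase, the untreated libraries held 32.7, 12.8 and 22.5 CPM of their total and the treated ones 27.2, 50.4 and 42.6 CPM, which overlap (exact two-sided permutation p = 0.2). Of the 8 tested, 1 rose and none fell, with a median log2 change of 0.75. Without untreated replicate 2, 7 were tested, none passed and the median was 0.36. The gene that rose was cox3, a subunit of cytochrome c oxidase, with 1.65, 0.196 and 1.15 CPM untreated and 2.50, 5.22 and 2.48 CPM with acid. Its log2 change was 1.75 ± 0.62 (adjusted p = 0.0316), from 3 to 22 counts per untreated and 32 to 47 per treated library. Without untreated replicate 2 it was 1.26 (adjusted p = 0.0772), and it also missed the threshold without untreated replicate 3 (1.88, adjusted p = 0.0599) or treated replicate 2 (1.323, adjusted p = 0.123).

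Another 2 mitochondrial genes lay near the threshold. The ATP synthase subunit gene atp9 had 18.8, 7.44 and 13.8 CPM untreated and 12.8, 39.9 and 33.0 CPM with acid, a log2 change of 1.10 ± 0.44 (adjusted p = 0.0503), with overlap through treated replicate 1. It was at 0.81 without untreated replicate 2 (adjusted p = 0.165), and it passed without untreated replicate 1 (1.42, adjusted p = 0.0323), treated replicate 1 (1.45, adjusted p = 0.0094) or treated mutant replicate 1 (1.09, adjusted p = 0.0451). The cytochrome c oxidase subunit gene cox2 had 1.13, 0.261 and 0.865 CPM untreated and 1.97, 1.78 and 1.318 CPM with acid, with no overlap (log2 change 1.17 ± 0.48, adjusted p = 0.0568). It was at 0.76 without untreated replicate 2 (adjusted p = 0.137) and passed without untreated replicate 1 (1.54, adjusted p = 0.0346). The other tested genes did not pass, with log2 changes of 0.72 for atp6, 0.47 for cox1, −0.49 for cob, the cytochrome b gene, and 0.26 and 0.79 for nd1 and nd4, subunits of respiratory complex I. Without untreated replicate 2 the values were 0.36 for atp6, 0.22 for cox1, −0.25 for cob and 0.20 for nd4, and nd1 was not tested. Of the remaining named rows, YalifMr31 had 195.8, 73.8 and 143.6 CPM untreated and 203.6, 231.1 and 328.7 CPM with acid. Its log2 change was 0.89 ± 0.30 (adjusted p = 0.0259) and 0.58 without untreated replicate 2 (adjusted p = 0.0516). It also missed the threshold without untreated replicate 3 (0.91, adjusted p = 0.0548) or treated replicate 3 (0.66, adjusted p = 0.112). YalifMr30, with 97.3 CPM in that library and 303.0 and 220.2 in the other untreated ones, did not pass (0.47 ± 0.33, adjusted p = 0.238). It was at 0.13 without replicate 2 (adjusted p = 0.623) and passed without untreated replicate 1 (0.85, adjusted p = 0.0431). Whether the state of untreated replicate 2 contributes to these values beyond what leaving it out shows was not tested.

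**Figure D5:**
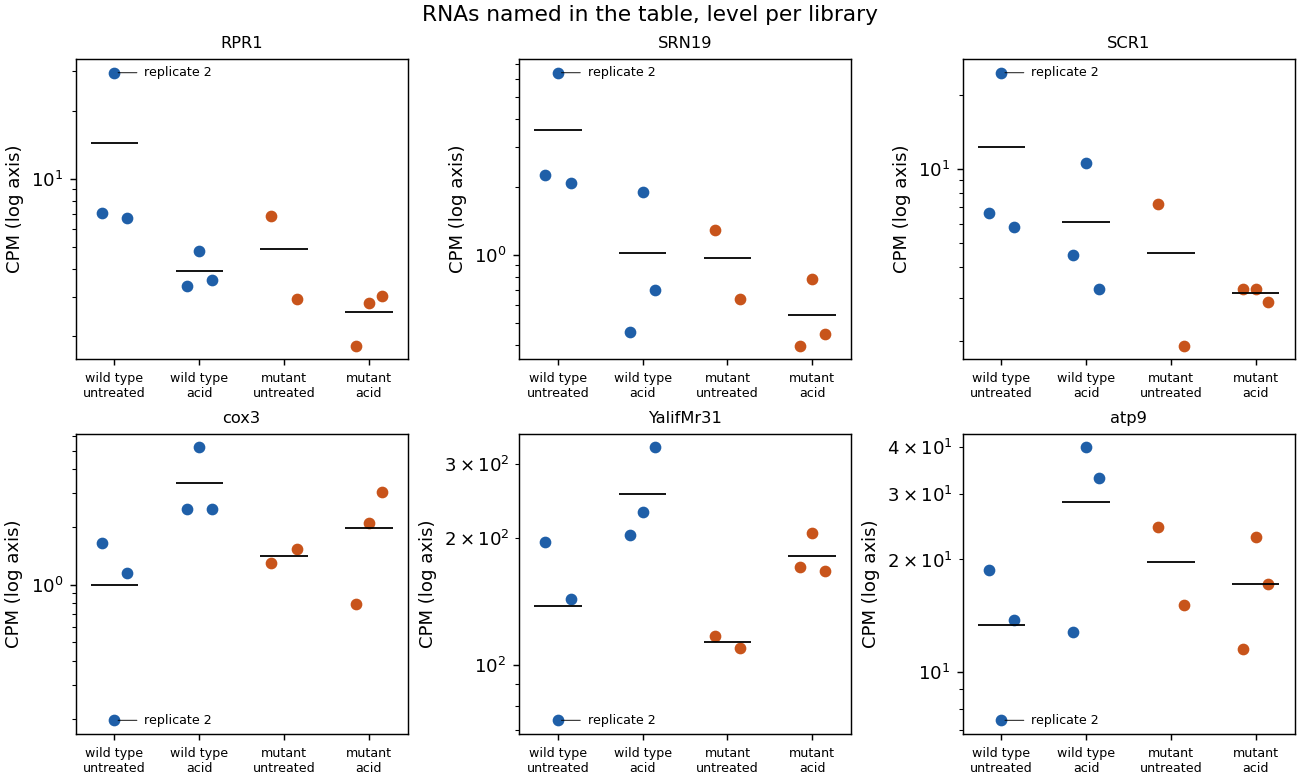
Level in CPM (log axis) per library of 3 noncoding RNAs (top) and 3 mitochondrial RNAs (bottom) that the table names, wild type in blue and mutant in orange, with a line at each group's mean. Untreated wild-type replicate 2 is the highest untreated library in the top panels (29.5 CPM for RPR1) and the lowest in the bottom panels (0.196 CPM for cox3).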

How the data were processed

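RNA was extracted with TRI Reagent and made into directional libraries (NEBNext Ultra II) for Illumina sequencing, per the labels' protocols. The deposited values used are the authors' raw counts per gene and library. Tools listed in the submitters' processing notes are HTSeq 0.11.0, STAR 2.7.9a, DESeq2 1.32.0, FastQC 0.11.7 and SAMtools 1.9. Which build, annotation and strand option were used is not given in the sources used here, so reads of overlapping genes and near-identical copies may be mixed. The deposited normalized table was not used.

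The 11 libraries were fitted together in edgeR 4.0.16 (R 4.3.3, limma 3.58.1) with 1 mean per group, TMM scaling, the filterByExpr filter and robust quasi-likelihood F tests. The SE was taken as absolute log2 change over the root of F. The fit was checked on simulated data with far fewer changed genes and smaller changes than were found here. That check therefore does not cover a response of this breadth. DESeq2 1.42.0 was an alternative. CPM are counts per 1000000. The p-values measure the spread between cultures of separate colonies. Replicates of 1 group differed by at least 38.9 in chi-square per degree of freedom, so each library counted once. The common biological coefficient of variation was 23.8%.

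Genes to be named were the 10 largest rises and falls with at least 50 CPM in the higher group, adjusted p under 0.05 and no overlap, limited to 2 tags per direction because no tag had a name. The lists planned from gene descriptions or protein sequences, levels per coding length and sequences were not analysed here. Genes that the table names were added after their values were seen. The members and lists were chosen with earlier results of these data known.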

Additional observations from a re-analysis of the deposited data

Results flagged for a closer look

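The response to hexanoic acid differed between the wild type and the mutant for 1604 of 6301 genes by edgeR's test of the difference (adjusted p under 0.05). Among the genes printed by tag, this was the case for YALI0_E06589g, whose log2 change was larger in the wild type by 10.4 (9.10 against −1.31), and for YALI0_B06028g, larger by 2.29 (8.85 against 6.56).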

How the results depend on the processing

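The numbers of wild-type genes that passed, in total, higher, lower and at least 2-fold, stayed within 1.5 times their values in every fit run, DESeq2 and the fit to the 6 wild-type libraries included. Leaving out 1 library at a time gave totals of 3049 to 3623, and 2777 of the 3563 genes (77.9%) passed in each of the 6 fits without 1 wild-type library. The number of genes with a response difference was 1103 to 1631 without 1 library and 1945 with DESeq2. Deviations of same-numbered untreated and treated wild-type libraries had correlations of −0.0146, 0.0332 and 0.366 for replicates 1, 2 and 3. Those of differently numbered libraries ran from −0.251 to 0.167. Each deviation was taken from a mean of 3 libraries, so these values cannot decide whether the numbers pair the libraries. With the replicate number as a block the wild-type total was 3391 (title numbers), 3402 (description numbers) and 3525 (wild-type libraries only). The mutant total of 1112 became 739 with the title block and 447 to 1419 without 1 library. For the rises of at least 8-fold, the percentage that passed in the mutant was 31.4 with the title block, 28.02 with the description block and 18.8 to 41.2 without 1 library, and the percentage with a larger response in the wild type was 85.5 to 92.5 without 1 library. For the falls, the percentage that passed in the mutant was 70.3 and 68.7 with these blocks, 87.1 with DESeq2 and 40 to 83 without 1 library, and the percentage with a larger response in the wild type was 39.5 with the title block, 58.0 with total counts only, 60.8 with DESeq2 and 32.8 to 71.0 without 1 library. The cause was not tested. Of the genes printed by name, none changed direction in any fit, and 9 changed sides of the threshold in at least 1. With the block, cox3 no longer passed in any of the 3 blocked fits (adjusted p = 0.0548 to 0.059), while SCR1 (−0.91, adjusted p = 0.0153) and SNR17 (−0.55, adjusted p = 0.0467) passed in the blocked fit to the wild-type libraries. Under DESeq2 atp9 and cox2 passed (adjusted p = 0.0216 and 0.0492), and atp9 also with the other size factors (0.0474) and with no filter (0.0458). Fits that leave a group with 1 library assume that it varies like the others, and the alternatives for the mutant, for the 8-fold sets and for the medians of the named RNAs were chosen after seeing the data. With few counts, as in the mitochondrial genes, only large changes were detectable.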
